A study of Mus musculus with 6 samples.

Results

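The genes described here are 9 mouse genes that osteoclasts use to fuse and to resorb bone, measured in digits-in-a-dish (DID) cultures by droplet single-cell RNA sequencing. They were taken by symbol and are Nfatc1, Oscar, Calcr, Dcstamp, Ocstamp, Acp5, Ctsk, Mmp9 and Atp6v0d2. All 9 are listed once among the 32286 genes of the deposited matrices, and each had at least 1 UMI (unique molecular identifier, a counted RNA molecule) in the cells kept. DID cultures are high-density cultures of dissociated distal forelimb mesenchyme from E11.5 CD-1 mouse embryos, an outbred stock, and the labels give no treatment or gene change in any group. The limb tissue of several embryos was pooled before seeding, so a library stands for a culture and not for an animal. Libraries were made at Day 2, Day 7 and Day 10 from 2 independent cultures a day, called replicates A and B. Each gene was followed in whole cultures, and inside and outside a gate that no member enters, namely cells with at least 10 UMIs of Tyrobp and Fcer1g together. Both gate genes encode signal adaptors of myeloid immune cells.

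Osteoclasts are the cells that dissolve bone and calcified cartilage, and they form when precursors of the macrophage lineage fuse under the cytokines CSF1 and RANKL. Adaptors encoded by Tyrobp and Fcer1g, the second of which pairs with the receptor OSCAR, add a calcium signal that activates NFATc1, the transcription factor that drives the osteoclast programme. DC-STAMP and OC-STAMP are membrane proteins needed for fusion. A vacuolar proton pump, of which ATP6V0D2 is a subunit, then acidifies the space under the cell, where cathepsin K (Ctsk) and the gelatinase MMP9 cut the matrix. Tartrate-resistant acid phosphatase, the product of Acp5, is the classical stain for osteoclasts, and the calcitonin receptor (Calcr) lets the hormone calcitonin halt resorption. Several of these genes are also used by other cells, Ctsk by fibroblasts and Nfatc1 by endocardial cells and T cells among them.

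On GRCm38, the build that the reads were aligned to, Acp5 (ENSMUSG00000001348) lies on chromosome 9 from 22126727 to 22135711, Ctsk (ENSMUSG00000028111) on chromosome 3 from 95499256 to 95509362, and Mmp9 (ENSMUSG00000017737) on chromosome 2 from 164940780 to 164955850. Ocstamp (ENSMUSG00000027670) is on chromosome 2 as well, from 165393760 to 165400405. Dcstamp (ENSMUSG00000022303) spans 39745930 to 39760938 of chromosome 15, Atp6v0d2 (ENSMUSG00000028238) 19876841 to 19922605 of chromosome 4, Oscar (ENSMUSG00000054594) 3609813 to 3616157 of chromosome 7, and Calcr (ENSMUSG00000023964) 3685680 to 3764714 of chromosome 6. The GENCODE annotation calls all 9 members protein-coding, and the UMIs were counted per gene, not per exon.

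Start-site sequences are shown for Ctsk, Oscar and Acp5. The first and the last rose in every comparison of whole cultures between days. All 3 windows were picked for holding letters of motifs named for factors of the osteoclast programme, and binding was not measured. RefSeq windows of 300 bases on GRCm38.p6, from 250 bases before to 50 bases after a start site, were matched for 4 of the 9 members. They were searched on both strands for TGACTCA (AP-1), TCATGTG (the M-box of MITF), GAGGAAG (PU.1) and TGGAAA (NFAT), 4 motifs that do not overlap in these windows, and capitals mark the matches. Among 32851 promoter windows of the same length, 5.20% held the AP-1 letters, 3.77% the M-box, 13.6% the PU.1 letters and 21.4% the NFAT letters.
Ctsk, chr3:95498960-95499259, plus strand: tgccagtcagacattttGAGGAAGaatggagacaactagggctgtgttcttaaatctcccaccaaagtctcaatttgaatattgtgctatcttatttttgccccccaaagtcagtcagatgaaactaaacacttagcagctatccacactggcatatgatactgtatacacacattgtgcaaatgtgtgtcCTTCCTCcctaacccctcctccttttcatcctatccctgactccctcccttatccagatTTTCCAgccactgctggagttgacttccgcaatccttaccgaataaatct
Oscar, chr7:3616108-3616407, minus strand: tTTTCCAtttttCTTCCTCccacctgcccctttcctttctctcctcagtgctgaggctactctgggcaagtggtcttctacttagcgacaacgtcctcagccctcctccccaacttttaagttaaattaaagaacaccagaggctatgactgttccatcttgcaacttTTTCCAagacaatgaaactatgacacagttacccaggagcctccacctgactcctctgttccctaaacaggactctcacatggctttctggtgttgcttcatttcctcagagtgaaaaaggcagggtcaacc
Acp5, chr9:22130549-22130848, minus strand: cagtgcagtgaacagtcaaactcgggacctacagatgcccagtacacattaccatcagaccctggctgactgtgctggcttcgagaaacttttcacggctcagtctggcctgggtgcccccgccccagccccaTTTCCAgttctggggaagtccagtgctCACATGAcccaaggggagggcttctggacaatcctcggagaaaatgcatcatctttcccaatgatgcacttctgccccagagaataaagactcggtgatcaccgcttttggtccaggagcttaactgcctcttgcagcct
The Ctsk window held PU.1 letters at -233 and -59 and NFAT letters at 1, counted from the start site as 1. Oscar had PU.1 letters at -238 and NFAT letters at -249 and -82. The Acp5 window shown belongs to a start inside the gene and held the M-box at -90 and NFAT letters at -117, while the other 2 Acp5 windows and the 2 Calcr windows matched none of the 4 motifs. Matches of 6 or 7 letters are common at these shares and are given as a description of the sequence.

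After the study's filter, the libraries held 9448 to 16486 cells and 178022112 to 260245417 UMIs, with a median of 3871 UMIs a cell in Day 2 replicate B and 8062 to 24197 in the other 5. The gate held 20 and 13 cells at Day 2, then 29 and 46 at Day 7 and 128 and 176 at Day 10, which is 0.212% and 0.0789%, 0.215% and 0.373%, and 1.23% and 1.77% of the cells (replicates A and B). Few cells lay near it, since 20 of the 412 gated cells had 10 to 19 UMIs of the gate genes, 5 of them in Day 2 replicate B. Pairs of libraries shared 24 to 67 barcodes, none of them gated in both. No doublets were removed, and the cells had passed a strainer before capture, so that large cells may be missing and the number of nuclei in a cell is not known.

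The labels name no cell type, so the gate was checked against marker lists. All 16 macrophage genes were called higher inside it than outside over the 6 libraries, although Mrc1 had 0 UMIs inside in Day 2 replicate B, with a median log2 fold change of 10.90 against -0.18 over the 15761 genes tested. C1qa, a complement subunit of tissue macrophages, led them with a log2 fold change of 12.83. Erythroid genes had 0 UMIs inside in all 6 libraries, at least 6 of the 8 mast cell genes were at 0 in each, and Cdh5, which defines endothelium, had 1 UMI inside in each Day 10 library and 0 in the other 4. The 6 endothelial genes summed to 13.5 to 45.3 CPM inside and at most 1.19 CPM outside, the 8 dendritic cell genes to 9.31 to 488 CPM inside, and all 3 of the latter that could be tested were higher there. Of the 10 neutrophil genes 6 to 9 were at 0 inside, and their summed level was 53.5 and 31.7 CPM (the UMIs of a gene scaled to a total of 1e6 UMIs over the summed cells) at Day 2 and at most 3.12 CPM later. The 12 limb mesenchyme genes summed to 1364 and 1165 CPM inside at Day 2 and to 4987 to 7910 CPM later, against 4111 and then 17693 to 21748 CPM outside, and their part in the results below was not tested.

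In whole cultures, most members rose with culture time. Of the 9 members, 8 passed the filter on low counts and Calcr did not. From Day 2 to Day 7, Acp5, Ctsk, Atp6v0d2 and Oscar rose, 4 of the 8 tested, where 35.7% of all genes tested were called higher. From Day 7 to Day 10, 7 of the 8 rose and Nfatc1 fell, against 26.3% of all genes higher and 25.9% lower. Between Day 2 and Day 10, 6 rose, Nfatc1 fell and Mmp9 did not pass, while 39.0% of all genes were called higher and 38.2% lower. Of the 8, Oscar, Dcstamp, Ocstamp and Atp6v0d2 passed the filter only with their later libraries, where they are high, so these counts are not read against the shares of all genes. With so many genes called in each direction, a rise as such does not set the members apart, and their sizes and the cells that held the RNA are what follows. In these sums over a culture, more cells that carry a gene and more RNA per cell cannot be told apart.

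**Figure D1:**
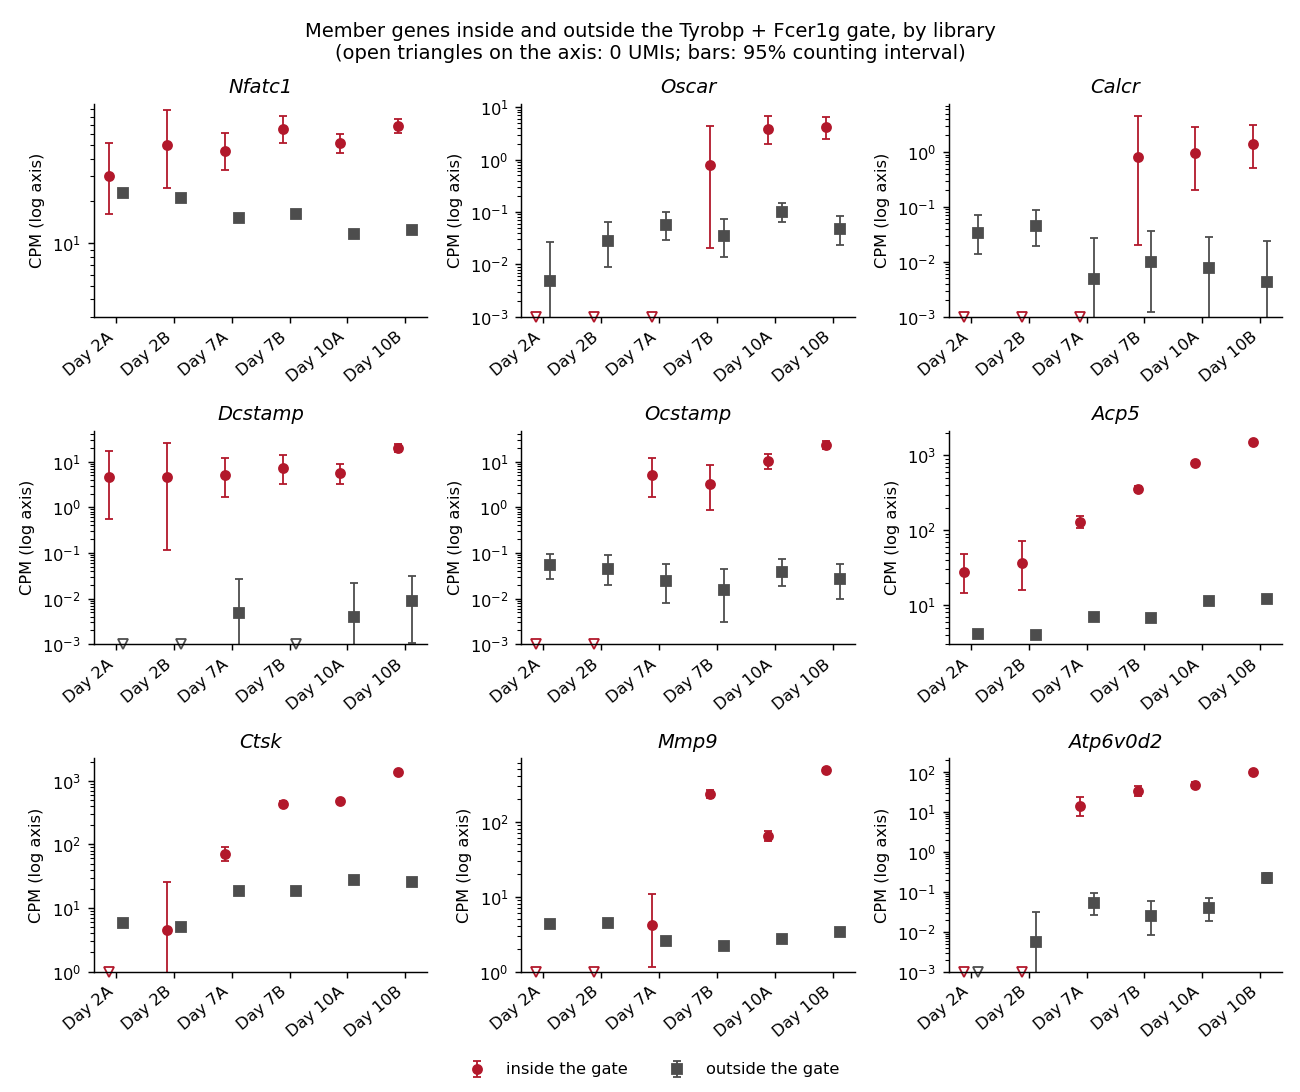
Level of each member in CPM (log axis) by library, inside the gate (red circles) and outside it (grey squares), with 95% counting intervals and open triangles for 0 UMIs. Inside the gate, Acp5 climbed from 27.9 and 36.3 CPM at Day 2 to 799 and 1528 CPM at Day 10, while Nfatc1 stayed between 30.3 and 68.4 CPM.

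Nfatc1, the regulator, had a level in whole cultures of 22.7 and 21.0 CPM at Day 2, then 15.2 and 16.5 CPM at Day 7 and 12.2 and 13.4 CPM at Day 10. The days do not overlap, and both replicates of each later day lie below both of the earlier one. Its log2 fold change was -0.51 ± 0.07 (SE, n = 2 libraries per day) between Day 2 and Day 10 (adjusted p = 1.80e-04) and -0.33 ± 0.07 between Day 7 and Day 10 (adjusted p = 0.00523). Between Day 2 and Day 7 it was -0.18 ± 0.07 and missed the threshold (adjusted p = 0.0512). Nearly all of this RNA lay outside the gate, which held 0.278% and 0.295% of the Nfatc1 UMIs at Day 2 and 5.01% and 9.34% at Day 10.

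Inside the gate the level of Nfatc1 was 30.3 and 49.9 CPM at Day 2, then 45.7 and 65.0 CPM at Day 7 and 51.6 and 68.4 CPM at Day 10. Neighbouring days overlap, both Day 10 libraries lie above both of Day 2, and the change from Day 2 to Day 10 did not pass (log2 fold change 0.74 ± 0.36, adjusted p = 0.185). Outside it was 22.7 and 20.9 CPM at Day 2 and 11.7 and 12.4 CPM at Day 10. In every one of the 6 libraries the gated cells had the higher level, by a log2 fold change of 1.87 ± 0.22 across the libraries (adjusted p = 2.87e-05). Nfatc1 UMIs were seen in 37.5% to 52.2% of the gated cells and in 14.5% to 30.3% of the cells outside, so that the gene marks neither side on its own.

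Oscar, the receptor that pairs with the Fcer1g product, was rare, with 1 and 5 UMIs in whole cultures at Day 2, then 12 and 8 at Day 7 and 38 and 29 at Day 10. Both Day 10 libraries lie above the other 4. Over the pooled UMIs the ratio of Day 10 to Day 2 was 8.68 (95% interval 3.79 to 24.5, counting error only). No Day 2 library and 1 of Day 7 reached the filter on low counts, so Oscar was tested only because it is high later, and its calls between days are no support for a rise. The smaller steps rest on few libraries, since the Day 2 to Day 7 step of 1.87 ± 0.65 (adjusted p = 0.0293) was 1.08 without Day 2 replicate A (adjusted p = 0.151) and 1.60 without Day 7 replicate A (adjusted p = 0.142). The Day 7 to Day 10 step of 1.44 ± 0.44 (adjusted p = 0.0225) lost its call without any 1 of the 4 libraries compared, with log2 fold changes of 1.31 and 1.56 without Day 10 replicate A and B and 1.72 and 1.22 without Day 7 replicate A and B (adjusted p 0.0598 to 0.138).

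Oscar UMIs inside the gate numbered 0, 0, 0, 1, 12 and 18 in the order of Day 2 A and B, Day 7 A and B, and Day 10 A and B. At Day 10 these were 31.6% and 62.1% of all Oscar UMIs, in 4 of 128 and 6 of 176 gated cells. Oscar was too low inside the gate to be tested there. Over both Day 10 libraries its level inside was 53.6 times that outside (95% interval of the ratio 32.0 to 89.2, counting error only). At Day 2 all 6 UMIs lay outside, but the gate then held too few UMIs for its 0 to place the gene.

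Calcr was the rarest member, with 7, 8, 1, 3, 5 and 7 UMIs in the 6 whole cultures in the same order. They are too few for a test. All 15 UMIs of Day 2 lay outside the gate, where the gate held too few UMIs for its 0 to place the gene. At Day 10, 3 of 5 and 6 of 7 lay inside. The count of 0 in the Day 2 gate allows a level of up to 4.61 CPM over both libraries, above the 1.22 CPM found inside at Day 10, so a difference between these days inside the gate was not detectable at this depth. With so few UMIs the share of gated cells with Calcr, 2.34% and 2.84% at Day 10, is a count of 3 and 5 cells.

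Dcstamp, needed for fusion, was nearly confined to the gate at all 3 days. The whole cultures held 2, 1, 6, 9, 18 and 88 Dcstamp UMIs, of which 2, 1, 5, 9, 17 and 86 were inside, leaving 4 UMIs among the 71687 cells outside. The pooled level inside was 3750 times that outside (95% interval 1427 to 13986, counting error only). Dcstamp passed the filter of that comparison only through the inside group, where it is high, so its call is no support for the difference. Day 10 replicate B alone held more Dcstamp UMIs than the other 5 libraries together.

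Between Day 2 and Day 10, the ratio of Dcstamp levels in whole cultures was 27.5 over the pooled UMIs (95% interval 9.15 to 135, counting error only) and rests on 3 UMIs at Day 2. Only the Day 10 libraries reached the filter on low counts, so the calls of Dcstamp between days, given next with how they move, are no support for a change. From Day 2 to Day 7 it did not pass (adjusted p = 0.158), but did in the fits without Day 10 replicate A (adjusted p = 0.0133) or B (0.0223). The step from Day 7 to Day 10 had a log2 fold change of 2.54 ± 0.78 (adjusted p = 0.0242). It was 0.90 without Day 10 replicate B (adjusted p = 0.255), 2.25 without Day 7 replicate A (adjusted p = 0.108) and 2.90 without Day 7 replicate B (adjusted p = 0.0616). Relative to all gated UMIs, the level of Dcstamp was 4.66 and 4.53 CPM at Day 2, then 5.19 and 7.22 CPM at Day 7 and 5.52 and 20.1 CPM at Day 10, where only Day 10 replicate B stands above the rest. Dcstamp was too low inside the gate to be tested between days.

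Ocstamp, its partner in fusion, had no UMI inside the gate at Day 2. Its level outside was 0.0496 CPM then, below the 4.61 CPM that 0 UMIs allow inside, so its place at Day 2 is not known. Whole cultures held 11, 8, 10, 7, 41 and 104 Ocstamp UMIs, and the gated cells 0, 0, 5, 4, 31 and 98 of them. Whole-culture levels at Day 2 and Day 7 overlap, and those of Day 10 are higher than all 4, with log2 fold changes of 2.81 ± 0.55 against Day 7 (adjusted p = 0.00310) and 2.84 ± 0.54 against Day 2 (adjusted p = 0.00114). Apart from both Day 10 libraries only Day 2 replicate A reached the filter on low counts, so that Ocstamp was tested because it is high at Day 10 and these calls add nothing to the counts. Outside the gate there were 19 UMIs at Day 2, 8 at Day 7 and 16 at Day 10.

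Inside the gate, Ocstamp at Day 10 was 3.80 times the level that 3 UMIs over the Day 2 gate would give. That factor was 1.29 without Day 2 replicate A, 2.51 without Day 2 replicate B and 2.18 without Day 10 replicate B. The 3 UMIs cover counting error of UMIs only. Ocstamp at 0 in 33 Day 2 cells gives no lower bound, as its 129 gated Day 10 UMIs came from 25 of 304 cells. It too entered the test only through the later days. Against that count of 0 it was called (adjusted p = 0.0470), but not without Day 2 replicate A (adjusted p = 0.274), Day 2 replicate B (0.104), Day 7 replicate A (0.0709) or Day 7 replicate B (0.0710), and without Day 10 replicate B Ocstamp was too low to be tested. Both Day 2 libraries have so few gated UMIs that the level a count of 0 allows, 6.98 and 13.6 CPM, lies close to the 10.1 CPM of Day 10 replicate A, with 22.9 CPM in replicate B.

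Acp5, the TRAP enzyme, had a level in whole cultures of 4.11 and 4.04 CPM at Day 2, then 7.49 and 8.82 CPM at Day 7 and 20.8 and 39.7 CPM at Day 10. The 3 days do not overlap. It rose by a log2 fold change of 1.28 ± 0.26 from Day 2 to Day 7 (adjusted p = 0.00210) and by 1.86 ± 0.25 from Day 7 to Day 10 (adjusted p = 4.39e-04), or 3.15 ± 0.26 in all (adjusted p = 5.85e-06). The gate held 1.42% and 1.11% of the Acp5 UMIs at Day 2, then 8.0% and 24.9% at Day 7 and 45.5% and 70.5% at Day 10.

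Inside the gate the level of Acp5 was 27.9 and 36.3 CPM at Day 2, then 130 and 354 CPM at Day 7 and 799 and 1528 CPM at Day 10. Again the days do not overlap, and the difference between Day 2 and Day 10 had a log2 fold change of 5.27 ± 0.60 (adjusted p = 6.42e-04). At Day 10, gated cells with UMIs of 5 or more members held 96.8% (A) and 98.4% (B) of this RNA. The rest of the gate had 27.0 and 29.1 CPM, close to the whole Day 2 gate. Since Acp5 helped to pick those cells, leaving them out must lower its level. The Day 2 gate, 20 cells in A and 13 in B, is too small to show that it lacked them. The part of this small draw in the change was not tested. Acp5 was the only member called in all 3 comparisons inside the gate, but both shorter steps lose their call under other settings. Its Day 2 to Day 7 change of 3.02 ± 0.63 (adjusted p = 0.0209) was 2.80 without Day 2 replicate A (adjusted p = 0.235), 3.21 without Day 2 replicate B (0.0874) and 2.10 without Day 7 replicate B (0.0613), and it was 1.18 without the single gated cell richest in member UMIs of each library (0.538) and 2.53 with all barcodes (0.0565). The Day 7 to Day 10 change of 2.25 ± 0.42 (adjusted p = 0.0358) was 1.71 without Day 10 replicate B (0.274), 2.25 without Day 2 replicate A (0.0537) and 1.69 without Day 7 replicate A (0.175), and 4.03 without the richest cells (0.0107). It was 2.27 with a gate of 20 UMIs (adjusted p = 0.0625) and 2.20 with a gate of 1000 CPM (0.0694).

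The share of gated cells with an Acp5 UMI was 40% and 46.2% at Day 2, then 34.5% and 52.2% at Day 7 and 37.5% and 39.8% at Day 10. Both Day 10 shares lie below both of Day 2, and Day 7 overlaps the other days. Outside, 7.70% and 3.87% of the cells had one at Day 2 and 20% and 19.6% at Day 10, with median depths of 18591 and 3866 UMIs at Day 2 and 24272 and 22143 at Day 10. With every cell thinned to 1000 UMIs, the shares inside were 0% and 7.69% at Day 2 and 6.25% and 15.3% at Day 10, against 0.440% and 0.261%, then 1.11% and 1.16%, outside. The most Acp5 UMIs in any 1 gated cell were 3 in both Day 2 libraries, 112 and 323 at Day 7, and 870 and 835 at Day 10.

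Ctsk, the collagen-cutting protease, was at 5.87 and 5.06 CPM in whole cultures at Day 2, then 18.9 and 21.0 CPM at Day 7 and 33.3 and 50.6 CPM at Day 10. No days overlap, with log2 fold changes of 2.15 ± 0.18 from Day 2 to Day 7 (adjusted p = 7.64e-06), 1.05 ± 0.17 from Day 7 to Day 10 (adjusted p = 0.00108) and 3.19 ± 0.18 over the whole time (adjusted p = 4.99e-07). Unlike Dcstamp, Ctsk had most of its RNA outside the gate in all 6 libraries, narrowly so in Day 10 replicate B, since the gate held 0%, 0.111%, 1.72%, 12.9%, 17% and 49.8% of the Ctsk UMIs.

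At Day 2, 1 Ctsk UMI was found in all 33 gated cells, and the level outside, 5.88 and 5.06 CPM, was not lower than the 0 and 4.53 CPM inside. Inside it was 70.6 and 437 CPM at Day 7 and 477 and 1375 CPM at Day 10, against 18.7 and 18.4, then 27.9 and 25.9 CPM, outside. Against Day 2, the ratio of levels inside the gate was 649 at Day 10 (95% interval 117 to 25650, counting error only) and 180 at Day 7 (32.3 to 7136), and both rest on that 1 UMI. Ctsk entered the test inside the gate only through the later days, so its calls against Day 2 are no support for a rise. From Day 7 to Day 10 the log2 fold change of 1.84 ± 0.66 did not pass (adjusted p = 0.188), although it did at 3.74 without Day 7 replicate B (0.0351).

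Mmp9, the gelatinase, behaved differently from Acp5 and Ctsk in whole cultures, with a level of 4.26 and 4.49 CPM at Day 2, then 2.56 and 3.62 CPM at Day 7 and 3.42 and 12.3 CPM at Day 10. Only Day 10 replicate B stands above the Day 2 libraries. The Day 7 to Day 10 rise of 1.31 ± 0.47 on the log2 scale passed narrowly (adjusted p = 0.0437) and was 0.14 without Day 10 replicate B (adjusted p = 0.585), and it was also lost without Day 2 replicate A (0.0695), Day 2 replicate B (0.0719), Day 7 replicate A (0.171) or Day 7 replicate B (0.0620). Against Day 2 the log2 fold change was 1.09 ± 0.46 (adjusted p = 0.0558), which turned to -0.07 without Day 10 replicate B and passed at 1.75 without Day 10 replicate A (adjusted p = 4.79e-05), and at 1.11 in the fits without Day 7 replicate A (0.0466) or B (0.0471).

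Gated cells held 0, 0, 4, 293, 198 and 2083 Mmp9 UMIs, or 0, 0, 4.16, 235, 64.3 and 488 CPM. Of the 293 UMIs of Day 7 replicate B, 273 came from 1 cell. No comparison between days inside the gate passed for Mmp9 in the main fit (Day 10 against the 0 UMIs of Day 2, adjusted p = 0.102). The 2 Day 10 libraries lie far apart, and 5.47% and 15.9% of their gated cells held an Mmp9 UMI, against 3.54% and 4.14% of the cells outside.

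Atp6v0d2, the proton pump subunit, started from almost nothing. Whole cultures held 0, 1, 25, 48, 161 and 498 Atp6v0d2 UMIs, and each day lies above the one before. Over the pooled UMIs, the ratio of Day 7 to Day 2 was 68.5 (95% interval 11.9 to 2740, counting error only) and rests on the 1 UMI of Day 2. Since no Day 2 library reached the filter on low counts, the calls against Day 2 are no support for it. From Day 7 to Day 10 Atp6v0d2 rose by a log2 fold change of 2.91 ± 0.58 (adjusted p = 0.00334). The gate held 56.0% and 89.6% of these UMIs at Day 7 and 93.8% and 89.8% at Day 10.

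Relative to all gated UMIs, the level of Atp6v0d2 was 0 at Day 2, then 14.5 and 34.5 CPM at Day 7 and 49.0 and 105 CPM at Day 10. At Day 10 it was 17.6 times the limit that a count of 0 allows over the Day 2 gate. That factor was 5.98 without Day 2 replicate A, 11.7 without Day 2 replicate B and 10.6 without Day 10 replicate B. The limit covers counting error of UMIs only. Atp6v0d2 at 0 in 33 Day 2 cells gives no lower bound, as its 598 gated Day 10 UMIs came from 44 of 304 cells. It entered the test only through the later days, and the call against that count of 0 (adjusted p = 0.0125) was lost without Day 2 replicate A (adjusted p = 0.140). From Day 2 to Day 7 the adjusted p was 0.118, and it was 0.0379 and 0.0423 in the fits without Day 10 replicate A or B. Gated cells with an Atp6v0d2 UMI made up 10.3% and 15.2% at Day 7 and 10.2% and 17.6% at Day 10. Outside the gate the level did not exceed 0.223 CPM in any library.

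The same 6 members, Nfatc1, Ocstamp, Acp5, Ctsk, Mmp9 and Atp6v0d2, could be tested between days inside the gate. Of these, 2 rose from Day 2 to Day 7, where 3.36% of the 9148 genes tested were called higher, 1 from Day 7 to Day 10 (0.667% of all genes) and 4 from Day 2 to Day 10 (7.19%). Ocstamp, Mmp9 and Atp6v0d2 entered this test only through the later days, since they had 0 UMIs in the Day 2 gate, as did Ctsk, which had 1. The 4 calls include Ocstamp, Atp6v0d2 and Ctsk and the 2 include Ctsk, so these counts are not read against the shares of all genes. Oscar, Calcr and Dcstamp were left out as too low.

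Between inside and outside, 5 of the 9 members could be tested, and Nfatc1, Dcstamp, Acp5, Ctsk and Mmp9 were all called higher inside, where 19.7% of all genes were. Dcstamp was tested only because it is high inside, so the count is not read against that share. Acp5 had a log2 fold change of 5.22 ± 0.54 (adjusted p = 1.09e-05), Ctsk of 3.59 ± 0.68 (adjusted p = 0.00116) and Mmp9 of 4.59 ± 1.0 (adjusted p = 0.00282). These are folds of summed UMIs and not of shares of cells, which for Ctsk at Day 10 were lower inside before thinning. By DESeq2 Mmp9 did not pass (log2 fold change 2.61, adjusted p = 0.117). Oscar, Calcr, Ocstamp and Atp6v0d2 did not pass the filter of this comparison. At Day 2 alone, Acp5 was the only member called higher inside, and Ctsk had a log2 fold change of -1.71 and Mmp9 no UMI in the gate.

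Whether the gap between inside and outside itself changed with the day was tested with limma on the inside minus outside difference of each library. From Day 2 to Day 10 it widened for Acp5 by 3.52 ± 0.74 (SE) on the log2 scale (adjusted p = 0.0330). In Day 10 replicates A and B, 96.8% and 98.4% of the gated Acp5 UMIs lay in 5 and 22 cells with UMIs of 5 or more members. An absence of such cells at Day 2 could not be shown in 20 and 13 gated cells, and the part of that draw in the widening was not tested. For Ctsk and Ocstamp the fit gave 5.88 and 3.86, but their Day 2 gate held 1 and 0 UMIs, so that these values are set by the 0.5 counts added and measure no widening. Mmp9, at 7.32 (adjusted p = 0.0665), had 0 UMIs in the Day 2 gate, so the same holds for its value. Nfatc1, with 1.42 (adjusted p = 0.0964), did not pass, nor did Mmp9 or the other 4 members, and 16.8% of the 17896 genes tested were called in either direction.

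**Figure D2:**
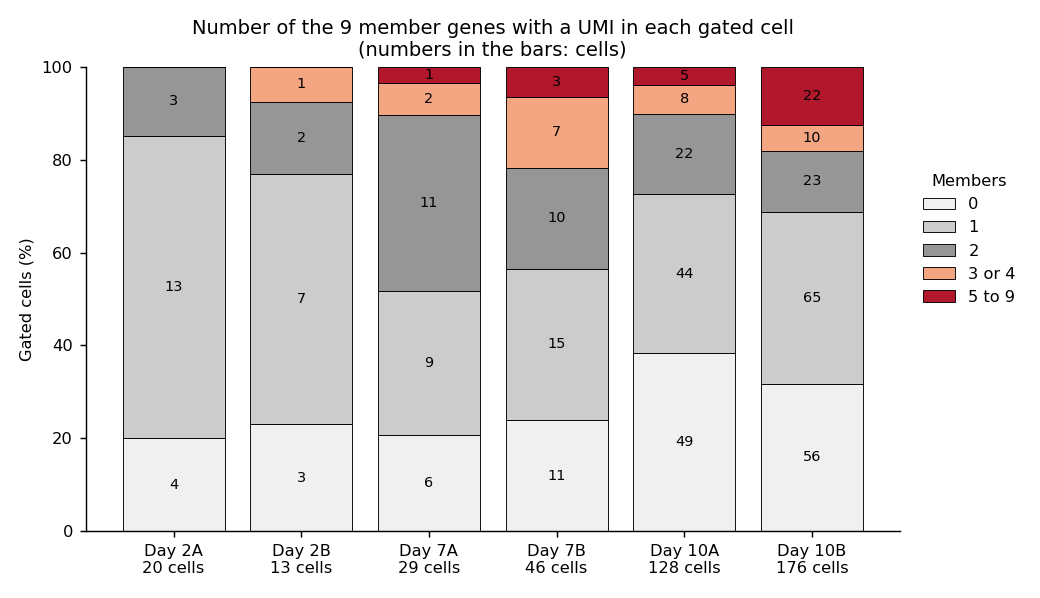
Share of gated cells (%) by how many of the 9 members had a UMI in the cell, for each library, with cell numbers in the bars. Cells with 5 or more members were absent at Day 2 and numbered 1 and 3 at Day 7 and 5 and 22 at Day 10.

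Members were not spread evenly over the gated cells, and at Day 10 a few cells carried most UMIs of most members. Of the gated cells, 0 and 1 had UMIs of 3 or more members at Day 2, then 3 and 10 at Day 7 and 13 and 32 at Day 10, which is 0% and 7.69%, 10.3% and 21.7%, and 10.2% and 18.2%. Outside the gate, 95, 65, 174, 151, 341 and 330 cells of the 6 libraries had 3 or more members, or 0.395% to 3.38% of the cells there. In the same order, 5, 2, 6, 7, 21 and 29 outside cells had 4 or more. Cells with 5 or more, a limit set after the values had been seen, numbered 31 in all, and none was found among the 71687 cells outside the gate. None was seen at Day 2 either, but 20 and 13 gated cells allow shares of up to 16.8% and 24.7% there (95% limits). These lie above the 3.91% and 12.5% of Day 10, so an absence at Day 2 could not be shown. A single cell of Day 7 replicate B, 2 of Day 10 replicate A and 1 of Day 10 replicate B had all 9 members. Since the members chose these cells, what follows on them is a description with no test.

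In the 31 cells, Acp5 and Ctsk were each seen in 31, Nfatc1 and Atp6v0d2 in 30, Mmp9 in 29, Ocstamp in 26, Dcstamp in 25, Oscar in 11 and Calcr in 9. Summed over the members they held from 11.6 to 725 UMIs per 10000, with a median of 207, while the other 277 gated cells of Day 10 had a median of 0.463 and at most 17.4. Their gate genes had a median of 53.8 UMIs per 10000 over the 31 cells, with 67.0 and 51.5 in those of Day 10 replicates A and B, against 53.0 in the other gated cells of Day 10. They were somewhat deeper, with a median of 29818 UMIs at Day 10 against 20317 in gated cells with fewer than 3 members, and their median share of mitochondrial UMIs was 6.06% against 2.63%. The part of depth in the number of members seen was not tested beyond the thinned shares, which at 3 or more members were 6.52% in Day 7 replicate B and 3.13% and 9.66% at Day 10.

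**Figure D3:**
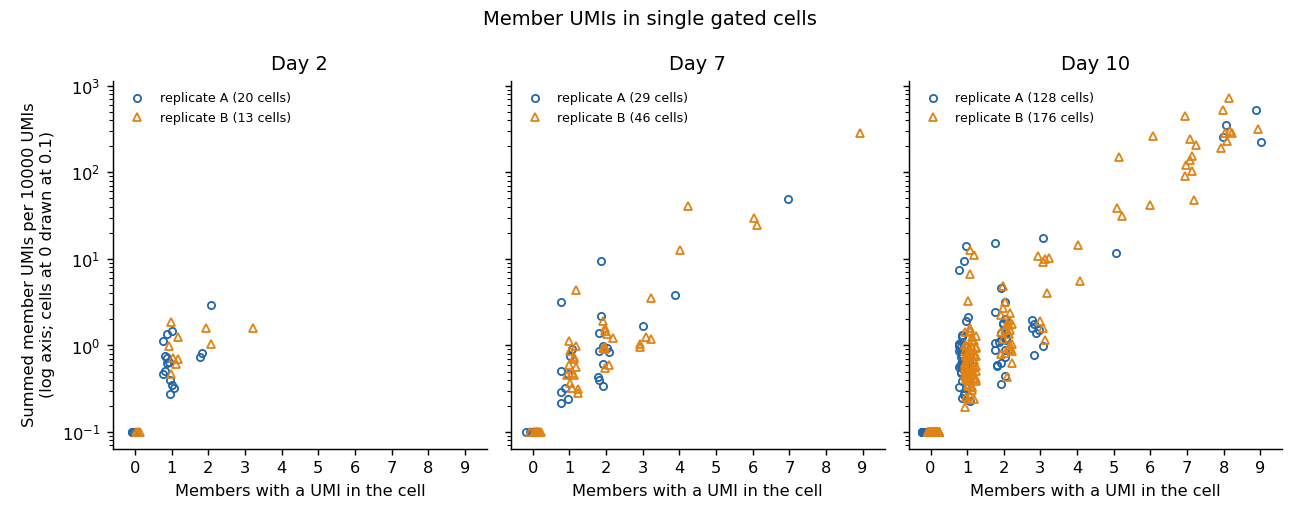
Summed member UMIs per 10000 UMIs (log axis) in each gated cell against the number of members seen in it, by day, for replicates A (circles) and B (triangles). At Day 2 no cell passes 3 members, and at Day 10 the cells with 5 or more reach 725 per 10000.

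At Day 10, the 5 and 22 such cells of replicates A and B held 96.8% and 98.4% of the gated Acp5 UMIs. Their Acp5 level was 15937 and 8758 CPM, against 27.0 and 29.1 CPM in the rest of the gate. The whole gate at Day 2 had 27.9 and 36.3 CPM. Ctsk was alike, with 92.3% and 96.5% of its gated UMIs in these cells and a level of 9073 and 7729 CPM against 38.6 and 57.7 CPM. For Mmp9 the share was 92.4% and 99.3%, for Ocstamp 96.8% and 99.0%, for Dcstamp 82.4% and 96.5%, and for Atp6v0d2 70.9% and 90.6%. All gated Oscar and Calcr UMIs of Day 10 lay in them, and 38.4% and 62.7% of the Nfatc1 UMIs, at a level of 408 and 250 CPM against 33.5 and 30.8 CPM in the rest of the gate. At Day 7 such cells of replicates A and B held 89.6% and 88.2% of the gated Acp5 UMIs. They held 20.6% and 80.7% of the Ctsk UMIs and 36.4% and 44.4% of the Nfatc1 UMIs.

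Without the 31 cells, the log2 fold change of the gate over the cells outside was 1.24 for Nfatc1, 1.93 for Acp5, 1.27 for Ctsk and 0.69 for Mmp9. Taking out the cells richest in members must lower these values, which are a description with no test. This run was added after the data had been seen.

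Other osteoclast genes were then compared, as a description, between these cells and gated cells with fewer than 3 members in the 2 Day 10 libraries. Over the 9961 genes with at least 10 UMIs in the latter cells of each replicate, 22.6% were higher in both replicates in the cells with 5 or more members and 44.4% lower, and over all 16260 genes with a UMI in these cells 16.5% and 39.5%. Of 12 receptor and signal genes, 8 were higher in the cells with 5 or more members in both replicates and 3 lower. Tnfrsf11a, the RANKL receptor RANK, was at 208 and 92.7 CPM in the cells with 5 or more members and 70.3 and 70.5 CPM in the others. Itgb3, the integrin chain of the osteoclast's adhesion ring, stood at 87.0 and 32.7 CPM against 5.76 and 9.04 CPM, and the kinase Src at 67.0 and 36.8 CPM against 4.99 and 8.73 CPM. Siglec15, a receptor that pairs with the Tyrobp adaptor, was at 20.1 and 1.36 CPM against 0, on 4 UMIs in all. The lower genes were Trem2, the adaptor-coupled receptor, at 556 and 237 CPM against 794 and 758 CPM, Sirpa and Plcg2.

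Transcription factors showed no common direction, since 4 of 13 were higher in both replicates, 5 were lower and 4 went opposite ways. The higher ones were Spi1 (PU.1), at 824 and 580 CPM against 360 and 334 CPM, Prdm1 (BLIMP1), a repressor of anti-osteoclast genes, at 93.7 and 136 CPM against 6.14 and 4.68 CPM, Fosl2, at 154 and 130 CPM against 26.1 and 23.1 CPM, and Mitf, which in replicate B was at 40.9 against 40.5 CPM. The lower ones included Irf8, known to restrain osteoclast formation, at 6.70 and 0 CPM (1 UMI in all) against 70.7 and 63.6 CPM. Fos, which osteoclasts need to form, was lower too, at 228 and 235 CPM against 634 and 626 CPM, as were Jun and Tfe3.

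Of 19 acid secretion genes, 14 were higher in both replicates and 4 lower. Slc9b2, a sodium-proton exchanger of osteoclasts, was at 1031 and 615 CPM against 8.83 and 9.36 CPM, and Tcirg1, the pump subunit that osteoclasts use, at 261 and 239 CPM against 64.5 and 60.5 CPM. Car2, the carbonic anhydrase that supplies protons, was at 33.5 and 155 CPM against 16.5 and 7.80 CPM, and the pump subunit Atp6v1b2 at 583 and 578 CPM against 91.4 and 85.1 CPM. Atp6v0a1, the alternative to the Tcirg1 subunit, went the other way, at 6.70 and 15 CPM (12 UMIs in all) against 76.0 and 72.0 CPM. So did Atp6v0d1, the alternative to Atp6v0d2, at 73.7 and 99.5 CPM against 125 and 130 CPM. Lower as well were Lamp2 and the lysosomal membrane gene Lamp1, the last at 161 and 164 CPM against 690 and 674 CPM.

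**Figure D4:**
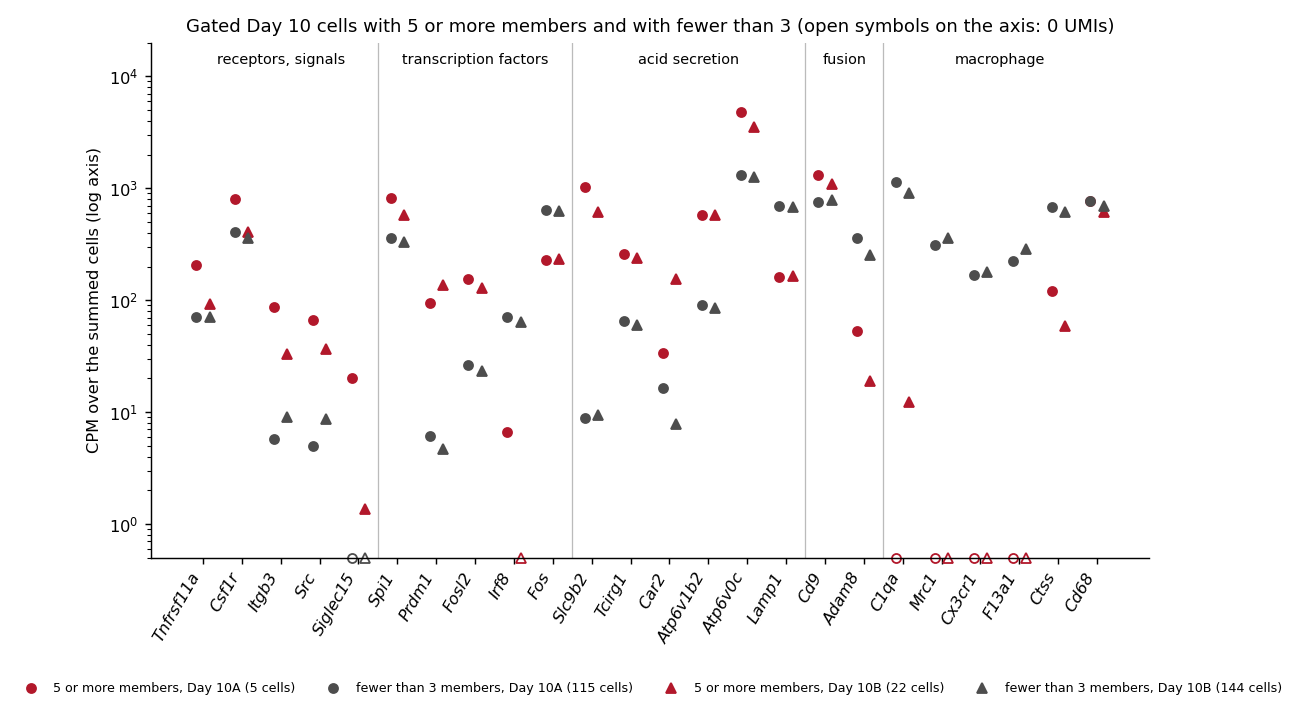
Level in CPM (log axis) of genes from 5 lists in Day 10 gated cells with 5 or more members (red) and with fewer than 3 (grey), for replicates A (circles) and B (triangles), with open symbols for 0 UMIs. Slc9b2 stands at 1031 and 615 CPM in the red cells against 8.83 and 9.36 CPM, and Mrc1, Cx3cr1 and F13a1 were seen in the grey cells only.

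Of the 16 macrophage genes, 15 were lower in the cells with 5 or more members in both replicates, and Csf1r, the CSF1 receptor that osteoclasts also need, was higher, at 804 and 410 CPM against 406 and 360 CPM. C1qa was at 0 and 12.3 CPM against 1132 and 900 CPM, and C1qb at 0 and 4.09 CPM against 781 and 536 CPM. Mrc1, the mannose receptor, Cx3cr1 and F13a1 had no UMI in the 27 cells of Day 10, where the others had 309 and 362, 167 and 179, and 226 and 284 CPM. The lysosomal gene Cd68 differed little, at 777 and 614 CPM against 777 and 695 CPM, and the protease Ctss was at 121 and 58.6 CPM against 678 and 619 CPM. Among fusion genes, the tetraspanin Cd9 was at 1319 and 1094 CPM against 758 and 785 CPM, while Adam8 was at 53.6 and 19.1 CPM against 361 and 255 CPM, and 5 of the 13 were higher and 3 lower in both replicates. Limb mesenchyme genes were lower in both replicates for 8 of 12 and went opposite ways for the others, among them Col2a1 at 181 and 1845 CPM against 905 and 509 CPM.

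Over the whole gate, without regard to the members, the lists were also compared between days. Over all 9148 genes tested, 3.36% were called higher and 3.30% lower from Day 2 to Day 7, 0.667% and 0.907% from Day 7 to Day 10, and 7.19% and 8.35% between Day 2 and Day 10. None of the 19 acid secretion genes passed from Day 2 to Day 7 or from Day 7 to Day 10, and 3 rose from Day 2 to Day 10, namely Atp6v0c by a log2 fold change of 0.87, Atp6ap1 by 0.77, and Slc9b2 (adjusted p = 0.0102), which had 1 UMI in the Day 2 gate and 190 and 494 at Day 10 and so was tested only because it is high later, with a list median of 0.46 against 0.01 over all genes. Of 11 receptor and signal genes tested, Plcg2 and Trem2 fell from Day 2 to Day 7 (-1.40 and -0.62), Plcg2 was lower at Day 10 than at Day 2 (-1.39), and none rose. Of 13 transcription factors, 2 fell from Day 2 to Day 7 and 2 were lower at Day 10 than at Day 2, Irf8 among them both times (-1.97 and -1.60), and none rose. Of 11 fusion genes, Adam8 rose from Day 2 to Day 7 (1.5), Cd9 from Day 7 to Day 10 (0.76), and Adam8 (2.25) and Cd81 (1.11) between Day 2 and Day 10.

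The macrophage and limb mesenchyme genes also moved inside the gate, beside the same shares of all genes. Of 16 macrophage genes, 3 rose and 7 fell from Day 2 to Day 7, 1 rose from Day 7 to Day 10, and 6 were higher and 5 lower at Day 10 than at Day 2. Between Day 2 and Day 10, Mrc1 rose by a log2 fold change of 3.59 and Lyz2, the lysozyme gene, by 3.35, while Aif1 fell by 3.35 and Cx3cr1, the fractalkine receptor, by 2.10. Of 12 limb mesenchyme genes, 9 rose from Day 2 to Day 7, 3 fell from Day 7 to Day 10, and 7 were higher at Day 10 than at Day 2, among them Col1a2 by 3.84 and Col2a1 by 3.18. Postn, called as well, had 0 UMIs in the Day 2 gate and 243 and 422 at Day 10. The part of these shifts in the members' changes was not tested.

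Against the cells outside, where 19.7% of all genes were called higher inside and 24.9% lower, the gate was higher in all 19 acid secretion genes (median 1.87 against -0.18 over all genes), in 9 of 11 receptor and signal genes (median 5.68), in 10 of 13 transcription factors (median 1.30) and in 7 of 12 fusion genes, with 1 lower (median 0.82). Slc9b2 (5.62), Car2 (4.74) and Snx10 (3.41) led the first, Trem2 (11.24) and the kinase Btk (10.95) the second, Spi1 (11.77) the third, and the integrin chain Itgb2 (9.11) the last.

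The genes whose pattern was most like that of the summed members were sought over 399 gated cells of the 5 libraries with at least 20 of them. Slc9b2 came first of 9719 genes, with a Pearson correlation across cells of 0.64 averaged over libraries, from 0.10 in Day 2 replicate A to 0.86 in Day 10 replicate B. Matk (0.53), 1110008P14Rik (0.53), Prdm1 (0.51), Chchd10 (0.51), Fam102a (0.51), Bdh2 (0.50), Atp6ap2 (0.48), Pdhb (0.47) and Cox8a (0.45) followed. In Day 2 replicate A the correlation was below 0 for Matk (-0.078), 1110008P14Rik (-0.13) and Fam102a (-0.079), and the lowest values of the other 6 lay between 0.22 and 0.39. Bdh2 and Slc9b2 are neighbours on chromosome 3, 3273 bases apart. These points share a library and its depth, and the order is a description.

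Levels are given for 5 of these 10 genes. All were picked for following the members over these same cells, so their higher levels in cells with many members follow from that choice. Cox8a, a subunit of cytochrome oxidase, was at 2297 and 2157 CPM in the Day 10 cells with 5 or more members and at 938 and 980 CPM in those with fewer than 3. Chchd10, of the mitochondrial intermembrane space, was at 502 and 451 CPM against 51.8 and 53.6 CPM, and Pdhb, of pyruvate dehydrogenase, at 221 and 191 CPM against 50.3 and 49.9 CPM. Atp6ap2, an accessory protein of the proton pump, was at 562 and 434 CPM against 117 and 114 CPM. Matk, a kinase that acts on Src family kinases, was at 67.0 and 77.7 CPM against 1.92 and 1.56 CPM.

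When the outside cells were tested alone between Day 2 and Day 10, 4 of the 6 members tested were called higher, namely Acp5, Ctsk, Oscar and Atp6v0d2, and 1 lower, where 39.0% of the 18854 genes tested were called higher and 38.2% lower. Oscar and Atp6v0d2 passed the filter on low counts only with later libraries, so the count is not read against these shares. The level of Acp5 was 4.06 and 4.0 CPM at Day 2, then 6.92 and 6.67 CPM at Day 7 and 11.4 and 11.9 CPM at Day 10, and that of Ctsk 5.88 and 5.06, 18.7 and 18.4, and 27.9 and 25.9 CPM. Tested over the outside cells alone, the log2 fold change between Day 2 and Day 10 was 1.82 for Acp5 and 2.58 for Ctsk, and both were called at each step. Oscar had 6 UMIs outside at Day 2 and 37 at Day 10, a ratio of levels of 4.86 (95% interval 2.03 to 14.1, counting error only). Atp6v0d2 had 0 and 1 UMIs outside in the Day 2 libraries and 10 and 51 in Day 10 replicates A and B. Nfatc1 fell by 0.58 over the same time, while Mmp9 fell by 0.60 from Day 2 to Day 7 (adjusted p = 0.00156) and rose by 0.35 from Day 7 to Day 10 (adjusted p = 0.0358).

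Members were also set side by side inside and outside the gate, as a description. Ctsk UMIs per Atp6v0d2 UMI numbered 9.72 and 13.1 inside the gate at Day 10. Outside they numbered 719 and 116, on only 10 and 51 Atp6v0d2 UMIs. Acp5 UMIs per Ctsk UMI numbered 1.68 and 1.11 inside and 0.409 and 0.461 outside. Outside levels of Ctsk at Day 10 were 27.9 and 25.9 CPM, and the gated cells of replicates A and B held 1468 and 5872 Ctsk UMIs. Whether these ratios differ beyond counting error was not tested. At least 5 Ctsk UMIs were found in 389 and 298 single outside cells at Day 10, and these held 35.8% and 33.2% of the outside Ctsk UMIs. A fixed count favours deep cells, and their median depth was 39384 and 40694.5 UMIs, against 24272 and 22143 over all outside cells. The part of free RNA from gated cells in the outside UMIs was not tested. Atp6v0d2 outside was at 0.0389 and 0.223 CPM at Day 10, with 49.0 and 105 CPM inside. At Day 7 the replicates stood in the other order outside, at 0.0530 and 0.0251 CPM, with 14.5 and 34.5 CPM inside. Cells outside with 1 to 9 UMIs of the gate genes had Acp5 at 11.8 (95% counting interval 10.1 to 13.8) and 12.5 (10.8 to 14.4) CPM at Day 10. Those with 0 had it at 11.4 (11 to 11.9) and 11.9 (11.4 to 12.4) CPM, so the intervals overlap in both replicates. Of the 9 members at Day 10, only Mmp9 in replicate B had intervals apart, at 4.57 (3.58 to 5.76) against 3.31 (3.07 to 3.56) CPM.

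**Figure D5:**
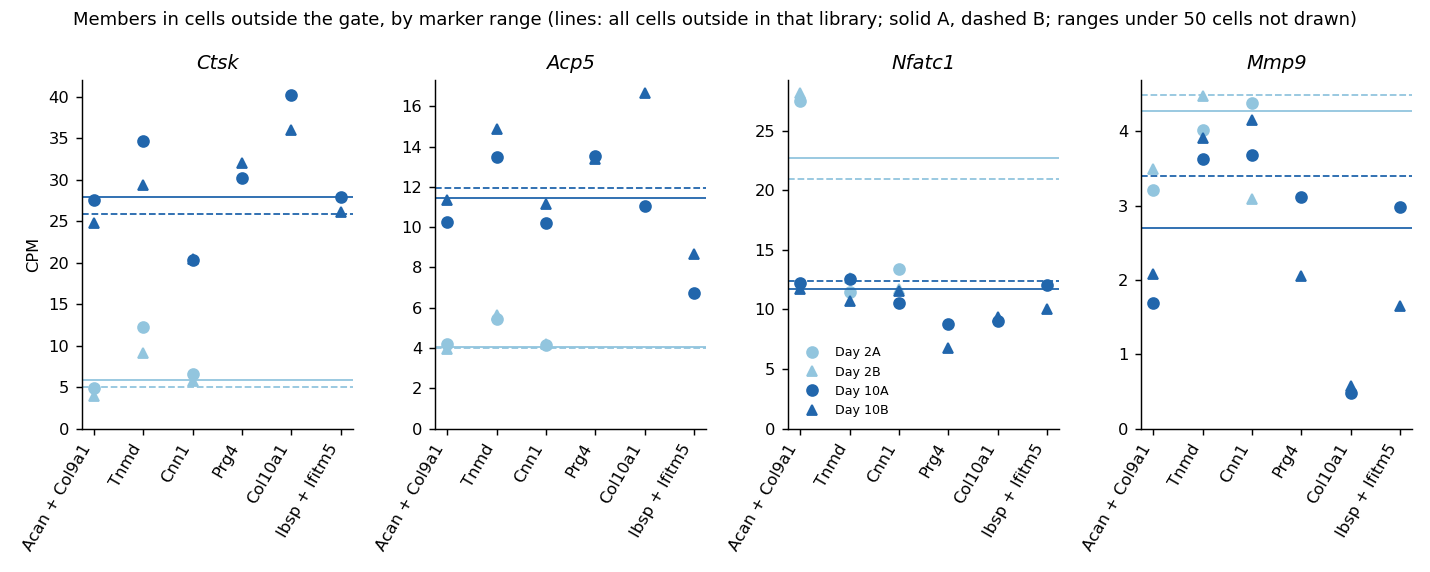
Level in CPM of Ctsk, Acp5, Nfatc1 and Mmp9 in cells outside the gate that hold the marker named on the axis, at Day 2 (light) and Day 10 (dark), replicates A (circles) and B (triangles), with lines for all outside cells of a library. Ctsk at Day 10 is highest in the Col10a1 cells, at 40.2 and 36.0 CPM, and lowest in the Cnn1 cells, at 20.3 and 20.4 CPM.

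Outside cells were described by marker ranges, each a sum over the cells that hold the marker. At Day 10, the level of Ctsk was 40.2 and 36.0 CPM in cells with at least 10 UMIs of Col10a1, the collagen of hypertrophic cartilage, and 34.6 and 29.4 CPM in cells with at least 2 UMIs of the tendon gene Tnmd. Cells with at least 5 UMIs of Cnn1, a contractile gene, had 20.3 and 20.4 CPM. The Tnmd cells were already ahead at Day 2, with 12.2 and 9.16 CPM against 5.88 and 5.06 CPM over all outside cells. These ranges overlap in cells and were not tested.

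Nfatc1 at Day 2 was above the level of all outside cells (22.7 and 20.9 CPM) in cells with at least 10 UMIs of Acan and Col9a1, the cartilage genes, at 27.5 and 28.2 CPM, and lower in Tnmd cells, at 11.5 and 12.7 CPM, and Cnn1 cells, at 13.4 and 11.7 CPM. By Day 10 the same cartilage range was at 12.3 and 11.8 CPM. Mmp9 at Day 10 was lowest in the Col10a1 cells, at 0.479 and 0.578 CPM, and was at 3.68 and 4.15 CPM in the Cnn1 cells. Acp5 at Day 10 lay between 6.74 and 16.7 CPM in the 6 ranges drawn. Endothelial cells could not be described, since at most 1 cell outside a library's gate had 3 UMIs of Pecam1 and Cdh5.

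Outside the gate, cells with at least 5 Mmp9 UMIs numbered 26, 15, 18, 16, 26 and 30 in the 6 libraries and held 22.6%, 16.4%, 32.5%, 33.9%, 33.5% and 28.5% of the outside Mmp9 UMIs, with up to 33 in 1 cell. Their median depth was 39004.5 to 53954.5 UMIs by library, against 3866 to 24272 over all outside cells. In no library did they hold more than 7 UMIs of the gate genes together. At Day 2 all 1675 Mmp9 UMIs lay outside the gate, at 4.37 CPM, below the 4.61 CPM that 0 UMIs allow inside.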

How the data were processed

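Droplet single-cell libraries (10x 3′ chemistry) of 6 DID cultures were used, 2 per day. Per the labels and the study's methods, the authors aligned reads with STAR in Cell Ranger 6.1.2 to GRCm38 and used Seurat 4.1.0 downstream; the deposited values are raw UMI counts per gene and barcode. The study's filter was reapplied with strict limits (over 200 and under 7500 genes, over 800 or 1000 UMIs, under 25%, 30% or 40% mitochondrial and under 35% or 40% ribosomal UMIs, by library). No doublet caller was run and none were removed. Kept cells held 178022112 to 260245417 UMIs a library, and intervals (95%, exact Poisson or exact binomial) cover counting error only.

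UMIs were summed per library, inside and outside the gate, and tested with edgeR 4.0.16 (R 4.3.3): filterByExpr, TMM, quasi-likelihood tests and Benjamini-Hochberg adjustment over all genes tested, at an adjusted p under 0.05. DESeq2 1.42.0 was an alternative, and limma 3.58.1 tested the change of the inside minus outside difference. The steps were tested on simulated data. CPM values use summed UMIs without TMM. Since 3′ UMIs are not scaled to length, counts and ratios set between genes are descriptions, and no level was tested between genes. A count of 0 was given the limit of 3 UMIs, which covers counting error of UMIs and not the draw of few cells. Shares were also taken with each cell thinned to 1000 UMIs, leaving out shallower cells. Python 3.11.15 with numpy 2.4.6, pandas 2.3.3, scipy 1.17.1 and matplotlib 3.10.9 was used. The text names every member, up to 5 genes of a list with the largest called change in a comparison, and the 10 genes most like the members; genes set side by side between gated cells with many and few members were picked with their values known. The members and lists were chosen with earlier results of these data known. Separate cultures make the replicates, so p-values measure the spread between cultures of pooled tissue. The alternatives were other gates, filters, normalizations and tools, all barcodes, a replicate block and each library left out. Whether replicate letters mark a shared batch is not given in the sources used here, and they were used as names. One list gene is counted but not reported here by name.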

Additional observations from a re-analysis of the deposited data

Results flagged for a closer look

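Barcodes that passed the gate but not the study's cell filter also held member UMIs, 23 in Day 2 replicate A, 68 and 54 in Day 7 replicates A and B, and 598 and 276 in Day 10 replicates A and B. These counts lie outside the comparisons above. They came from 3, 9, 10, 22 and 20 barcodes, and 2, 9, 10, 22 and 20 of these had at least 7500 genes. Their summed member level was 72.3, 65.4, 46.4, 296 and 125 CPM, against 62.9, 275, 1137, 1461 and 3613 CPM in the gated cells that were kept. UMIs of 5 or more members were found in 1 such barcode in each of Day 7 replicate B, Day 10 replicate A and Day 10 replicate B.

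For Acp5 the difference between inside and outside the gate changed from Day 2 to Day 10 by 3.52 on the log2 scale, by the limma test of that change (adjusted p = 0.0330). Most gated Acp5 UMIs of Day 10 lay in 5 and 22 cells of replicates A and B. The part of drawing only 20 and 13 gated cells at Day 2 was not tested. The same fit also called Ocstamp, at 3.86, and Ctsk, at 5.88. Their Day 2 gates held 0 UMIs and 1 UMI, so both values are set by the 0.5 counts added to every sum and are no measured change.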

How the results depend on the processing

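Of the log2 fold changes of members under the alternatives, 557 kept their direction and side of the threshold, 51 lost a call, 34 gained one and 11 changed sign; for list genes these numbers were 864, 13, 18 and 4. The cause was not tested. Results that changed sign had log2 fold changes of -0.13 to 0.43 with 1 library left out for Nfatc1 inside the gate (Day 10 versus Day 7; -0.11 without Day 10 replicate B, the lowest without Day 7 replicate A), -0.14 with all barcodes and -0.20 to 0.23 with 1 library left out for Ocstamp (Day 7 versus Day 2, whole cultures), and for Mmp9 -0.25 in outside cells only and -0.069 to 1.75 with 1 library left out (Day 10 versus Day 2, whole cultures), -0.49 to 0.030 (Day 7 versus Day 2, whole cultures) and -0.95 to 6.07 (Day 10 versus Day 7 inside). Between inside and outside at Day 2 alone they were -1.71 for Ctsk, -11.70 for Mmp9, -8.14 for H2-Ab1, -0.81 for Mki67, -1.20 for Top2a and -1.19 for Birc5. Mmp9 and H2-Ab1 had 0 UMIs in the Day 2 gate and Ctsk had 1, so their values there are set by the prior count and are no measured fold.

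Members called inside the gate from Day 7 to Day 10 (1) numbered 0 with a gate of 1000 CPM or of 20 UMIs, 5 with no filter on low counts and 3 without the top cell of each library. The genes called there numbered 264 with all barcodes, 29 with a gate of 1000 CPM, 43 with a gate of 20 UMIs and 705 with no filter. From Day 2 to Day 7 inside the gate, members called (2) numbered 0 with all barcodes or without the top cell and 4 with no filter, and genes 1141 with no filter. DESeq2 called 907 genes inside from Day 2 to Day 10. In outside cells only, 3 members were called higher and 1 lower from Day 7 to Day 10, as were 4891 and 4869 of 18854 genes. Inside against outside (5 members), 8 were called at Day 10 alone, where 4033 of 16674 genes were higher, and 8 by DESeq2 (3419 of 19893). The number was 1 at Day 2 alone (1634 of 16522), 9 with no filter (3195 of 26597) and 3 without cells with 5 or more members (3000 of 15730). Day 2 alone called 3250 genes in either direction. Members called inside the gate or between inside and outside in this section were all higher. Some entered only through the group where they are high, so the counts are not read against all genes.

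Leaving out 1 library at a time, where a lone library is taken to vary like the other days, members called ranged from 7 to 8 (Day 10 versus Day 2), 5 to 7 (Day 10 versus Day 7) and 3 to 5 (Day 7 versus Day 2) in whole cultures, 1 to 5, 0 to 2 and 0 to 3 inside the gate, and 5 to 6 between inside and outside. Genes called ranged from 13543 to 14514, 6788 to 10558 and 11500 to 13226 in whole cultures, 418 to 1315, 6 to 181 and 193 to 419 inside, and 5662 to 7484 between inside and outside.

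With a replicate block, members called inside were 3 from Day 7 to Day 10, 4 from Day 2 to Day 7 and 5 between Day 2 and Day 10. Of 9148 genes, 67, 299 and 587 were called higher there. Only 6 members were tested, so Nfatc1 or Mmp9, neither called without the block, was among the 5. The sources used here do not say whether the letters pair the libraries, and same-lettered libraries deviated from their day's mean with correlations of -0.098 to 0.062. An edgeR interaction fit of gate and day gave errors below the replicate spread and was replaced by limma. At Day 2, 33 gated cells limit every inside value.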
